A study of Homo sapiens with 18 samples.

Results

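The 32 genes described here are the collagen chains and the collagen processing enzymes among the 12853 genes measured by RNA-seq in 6 ovarian cancer cell lines. They were chosen by symbol. All 20 genes named as numbered collagen chains were taken, together with 12 enzymes and helpers, namely PLOD1, PLOD2, PLOD3, P4HA1, P4HA2, SERPINH1, LOX, LOXL1, LOXL2, LOXL4, BMP1 and PCOLCE. The rule itself uses symbols alone. Of the 44 numbered collagen chains listed by role, 24 were not in the table and were not analysed here, and no level is given for them.

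Each line was sequenced in 3 replicate libraries, 18 in all, from ribosomal RNA-depleted total RNA of cells grown in RPMI-1640 with serum, and no drug treatment is labelled. The lines form 3 pairs of a platinum-sensitive and a platinum-resistant line. CP70 is a resistant derivative of A2780 that was obtained in vitro. PEA1 and PEA2 came from the ascites of 1 patient with high-grade serous ovarian cancer (HGSOC), PEA1 before platinum chemotherapy and PEA2 after a resistant relapse. PEO1 and PEO4 came from another patient with HGSOC, both after platinum treatment, PEO1 before and PEO4 after clinical resistance. Each pair is therefore 1 sensitive and 1 resistant line, and resistance cannot be told apart from any other difference between those lines. The labels do not say that replicates are separate cultures, so p-values measure only the spread between these libraries.

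Collagens are the main structural proteins of the extracellular matrix. Collagen chains assemble into triple helices in the endoplasmic reticulum, where prolyl and lysyl residues are hydroxylated and where the chaperone encoded by SERPINH1 (HSP47) holds the helix. After secretion the propeptides of the fibrillar collagens are cut off, and lysyl oxidases cross-link the deposited fibres. Types I, III, V and XI form fibrils, type IV forms the sheets of basement membranes, and type VI forms beaded filaments. In ovarian tumours much of the fibrillar collagen is known to be made by stromal fibroblasts, while epithelial cells lay down basement membrane. The libraries here are from cell lines in culture.

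Values are log2 CPM, that is, read counts scaled to the size of the library, with 0.5 reads added to each count. Whole reads were recovered from these values, and the libraries held between 1344098 and 7067336 reads on the listed genes. A library with no read of a gene still has a negative log2 value, which depends only on its depth, so read numbers are given for genes near this floor. A line with at most 3 reads over its 3 libraries was taken as below the level that can be measured. Where a line held no read, a fold given as at least sets 3 reads in its place. Such a fold leaves out counting error in the higher line. Marker genes separated the lines. The summed level of 4 Müllerian and serous markers was at most 1.19 CPM in A2780 and CP70 and at least 283 CPM in the other lines. In PEA1 most of the sum was PAX8, at 379 to 595 reads per library, with WT1, MUC16 and SOX17 at most at 11. In PEO1 and PEO4 most of it was MUC16, and SOX17 held at most 1 read per library. A2780 and CP70 carry a label of endometrial or ovarian cancer cells. The summed level of 6 epithelial markers was 2.24 to 3.13 CPM in A2780, 89.4 to 95.8 CPM in CP70, 154 to 202 CPM in PEA1 and at least 3251 CPM in PEA2, PEO1 and PEO4.

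The lines differed first in which collagens they expressed. To compare genes with each other, levels were divided by transcript length, and each gene was given as its share of the summed collagen CPM per kilobase of the library. In A2780, COL3A1 (the type III chain) held 41.3% ± 1.57 and COL5A2 (a type V chain) held 36.3% ± 0.999 (SD, n = 3). In CP70 the same genes held 44.1% ± 1.24 and 41.9% ± 0.764. COL11A1, a type XI fibrillar chain, held 10.7% ± 0.306 in A2780 and 0.473% ± 0.0766 in CP70. COL6A3, a type VI chain, held 3.08% in A2780 and 0.016% in CP70, and COL12A1, a chain that sits on the surface of fibrils, held 0.111% and 6.84%.

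In PEA1 the largest shares belonged to the basement membrane chains COL4A2, at 27.3% ± 0.607, and COL4A1, at 20.2% ± 0.427. They were followed by the type VI chain COL6A2, at 15.7% ± 0.893, and by the type I chain COL1A1, at 13.6% ± 0.386. In PEA2 COL4A2 held 44.4% ± 0.807 and COL4A1 27.8% ± 0.333, and COL12A1 held 13.5% ± 1.12. PEO1 was led by COL4A2 at 28.4% ± 1.13 and by COL8A1, a short network-forming chain, at 23.98% ± 0.154. In PEO4 these held 0.351% ± 0.227 and 1.94% ± 0.814. Its largest shares were COL3A1 at 23.9% ± 1.62, COL6A1 at 19.7% ± 1.76, COL18A1 at 19.3% ± 2.89 and COL6A2 at 12.1% ± 1.89. With the length of all exons of a gene in place of its canonical transcript, COL5A2 came first in A2780 and CP70, COL6A2 in PEA1 and COL8A1 in PEO1. In bulk RNA fewer cells of a type and less RNA per cell cannot be told apart.

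**Figure D1:**
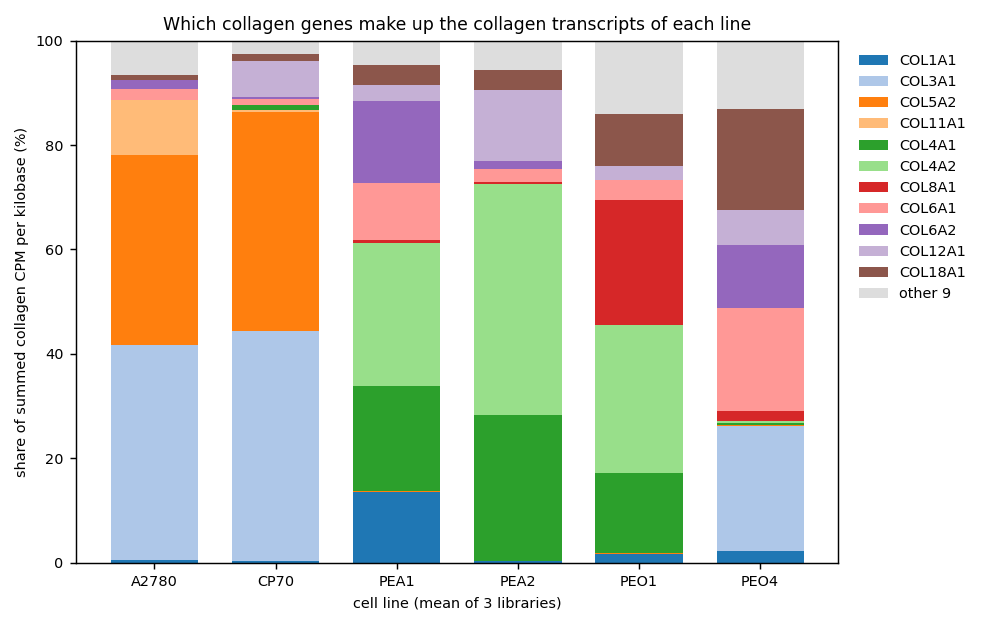
Stacked bars give the share (%) of each collagen gene in the summed collagen CPM per kilobase of transcript, as the mean of 3 libraries in each of the 6 lines. The 11 genes with a share above 8% in any line are coloured and the other 9 are grey. COL3A1 and COL5A2 fill most of the A2780 and CP70 bars, COL4A1 and COL4A2 most of the PEA2 bar, and PEO4 has hardly any COL4A1 or COL4A2.

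The total also differed between lines. The 20 collagens summed to 1742 CPM ± 249 in A2780, 2322 ± 119 in CP70, 2892 ± 260 in PEA1 and 1846 ± 72.5 in PEA2 (SD, n = 3). Both PEO lines were far lower, at 293 CPM ± 21.0 in PEO1 and 273 ± 10.6 in PEO4, and no collagen passed 100 CPM in either of them. By read number PEO4 had the most collagens above 3 reads, since COL11A1 was its one collagen at or under that level. In PEA1, the line with the fewest reads, 6 collagens were at or under it. By level the order was different, since PEO4 had the fewest collagens above 10 CPM, at 6, while PEA1 and PEA2 each had 11.

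Collagen levels varied far more between lines than those of most genes. The range of the 6 line means had a median of 7.59 log2 units over the 20 collagens and 4.23 over the 12 enzymes, against 1.88 over all 12853 genes. The range was above 4 log2 units for 17 of 20 collagens, 6 of 12 enzymes and 3013 of all genes. COL3A1 had the widest range, 12.7 log2 units between CP70 and PEO1, and BMP1, the procollagen C-proteinase, had the narrowest, at 1.61. Among the enzymes PLOD1, PLOD3, SERPINH1 and BMP1 each spanned no more than the median of all genes, with ranges of 1.88, 1.85, 1.83 and 1.61.

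**Figure D2:**
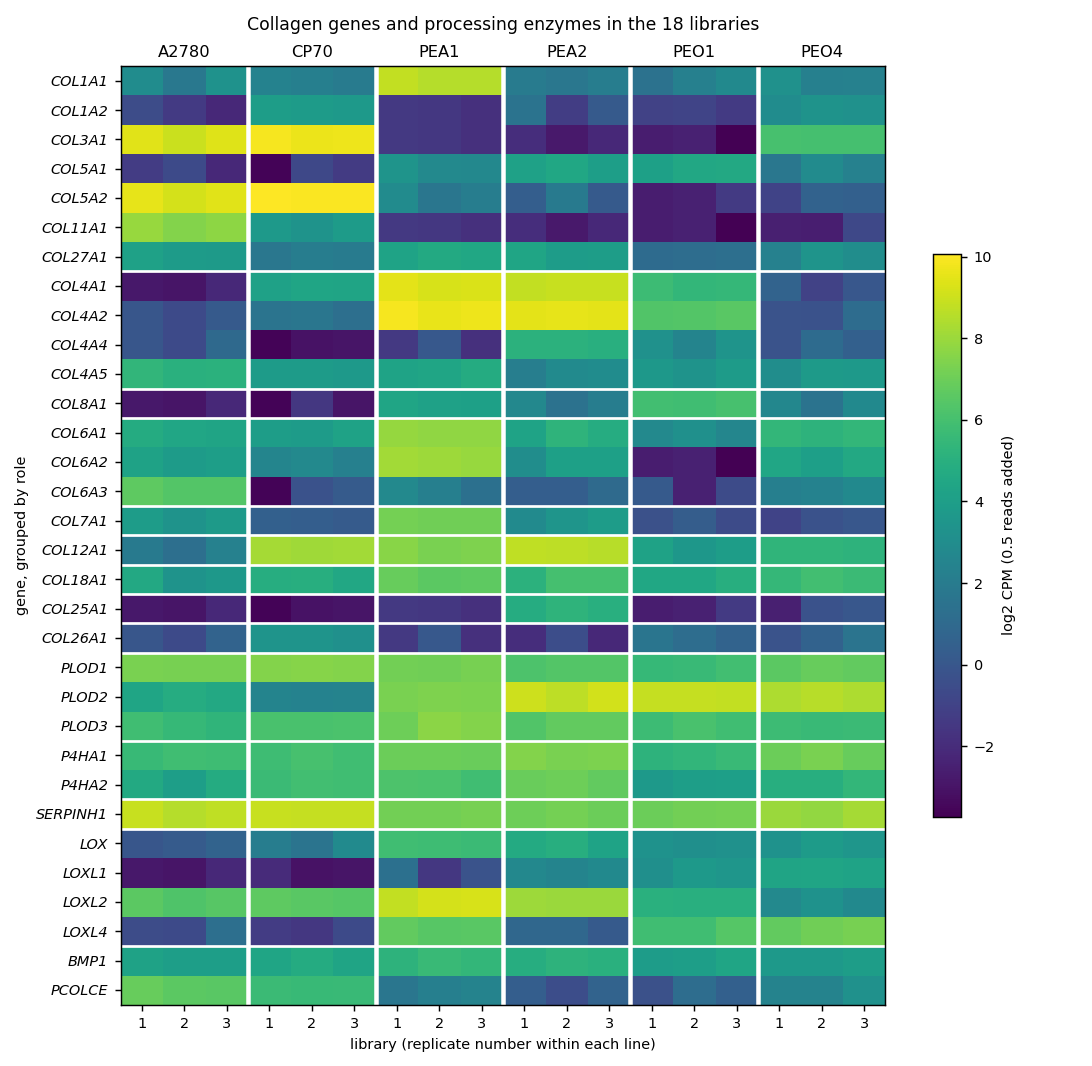
The heatmap shows log2 CPM of the 32 genes (rows, grouped by role) in the 18 libraries (columns, grouped by line). Replicates of a line resemble each other, and most collagen rows switch between dark and bright from line to line while the rows of PLOD1, PLOD3, P4HA1 and SERPINH1 stay at similar colours.

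The resistant line was then compared with the sensitive line of each pair. The difference in mean log2 CPM (log2FC, resistant minus sensitive) was tested with limma, and p-values were adjusted for the 12853 tests after Benjamini and Hochberg (FDR). Genes with an FDR below 0.05 passed the test, and those with |log2FC| above 2 as well were called. In the A2780 pair 20 of the 32 genes passed, where 39.9% of all genes did. In the PEA pair 22 passed, against 61.9% of all genes, and in the PEO pair 21 passed, against 41.5%.

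Calls were split between directions in every pair. In CP70, 4 genes were called higher than in A2780, COL4A1, COL12A1, COL1A2 and COL26A1, where 5.66% of all genes were, and 5 were called lower, COL6A3, COL11A1, COL7A1, COL4A4 and PLOD2, where 3.4% of all genes were. In PEA2, 3 genes were called higher than in PEA1, COL25A1, COL4A4 and LOXL1, beside 7.93% of all genes, and 6 were called lower, COL1A1, LOXL4, COL6A2, COL7A1, COL6A1 and COL8A1, beside 6.15%. In PEO4, 7 genes were called higher than in PEO1, COL3A1, COL6A2, COL1A2, COL6A3, COL6A1, PCOLCE and COL5A2, beside 2.86% of all genes, and 6 were called lower, COL4A2, COL4A1, COL8A1, COL4A4, COL5A1 and LOXL2, beside 3.37%.

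Across the 32 genes the median log2FC was 0.04 for CP70 against A2780, -0.69 for PEA2 against PEA1 and 0.96 for PEO4 against PEO1, while over all genes it was -0.02, 0.01 and -0.02. The value of -0.69 in the PEA pair is also the log2FC of a gene with no read in either line. Of the 20 collagens 17 were called in at least 1 pair, and of the 12 enzymes 5 were, where 22.9% of all genes were. COL4A4 was the one gene called in all 3 pairs, and its directions differed. No gene was called in the same direction in all 3, and 7 genes were called in 2 pairs. Of these 7, COL1A2, COL7A1 and COL8A1 had the same direction in both pairs. COL4A1, COL6A1, COL6A2 and COL6A3 had opposite directions. The shares of all genes called in 2 pairs, or alike in all 3, were not counted.

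**Figure D3:**
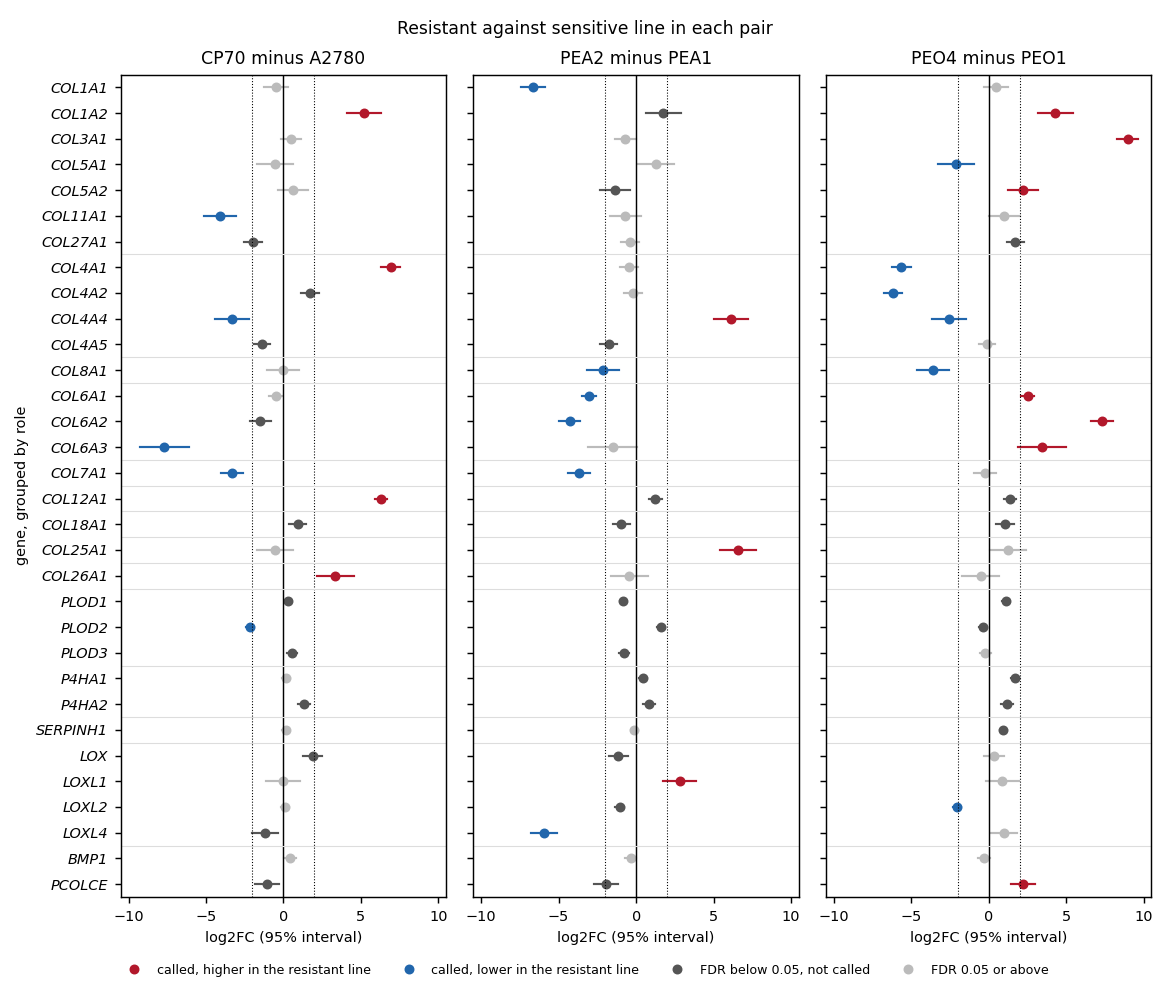
Each point is the log2FC (resistant minus sensitive) of 1 gene in 1 pair, with its 95% interval from limma, and the dotted lines mark -2 and 2. Red and blue points are called higher and lower in the resistant line, and grey points are not called. The collagens spread from -7.68 to 8.95, while the enzymes lie between -5.93 and 2.80.

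The type III chain COL3A1 separated the PEO lines. COL3A1 held no read in any library of PEA1, PEA2 or PEO1. In PEO4 its log2 CPM was 6.07, 5.98 and 5.99, from 193, 189 and 156 reads. PEO4 was thus at least 268-fold higher than PEO1 for COL3A1 (log2FC 8.95 ± 0.31 SE, FDR 4.84e-14). In A2780 COL3A1 was 9.47, 8.98 and 9.38, and in CP70 9.89, 9.67 and 9.73. The libraries of CP70 lay above those of A2780, with a log2FC of 0.49 that did not pass (FDR 0.23).

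COL5A2 encodes the chain that pairs with COL5A1 in type V collagen, and it lies 19151 bases from COL3A1 on chromosome 2 (GRCh37, COL3A1 at chr2:189839099-189877472 and COL5A2 at chr2:189896624-190090038). In A2780 COL5A2 was 9.55, 9.20 and 9.46, and in CP70 10.07, 9.98 and 9.97. In these lines it stayed within 0.19 log2 units of COL3A1 per length, at -0.19 ± 0.09 in A2780 and -0.07 ± 0.07 in CP70 (SD, n = 3). The neighbours parted in PEO4, where COL3A1 had 538 reads and COL5A2 had 8. COL5A2 was called higher in PEO4 (log2FC 2.22, FDR 0.00058), but on 8 reads against 2, a ratio of 5.98 with a counting interval from 1.19 to 57.8, and without PEO1 replicate 1 or PEO4 replicate 2 or 3 its log2FC was 1.99, 1.95 or 1.99 and it was not called. CP70 and A2780 did not differ past the threshold (log2FC 0.60, FDR 0.32). In the PEA pair COL5A2 passed downward on 21 against 17 reads (log2FC -1.38, FDR 0.013), with overlapping libraries, and missed the threshold without PEA1 replicate 1 (FDR 0.078), PEA2 replicate 1 (0.055) or PEA2 replicate 3 (0.075).

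COL5A1 went the other way in level. It held 3 reads in A2780 and 3 in CP70, while COL5A2 held 6537 and 14636. Its log2 CPM was 3.40, 2.76 and 2.73 in PEA1, 4.16, 4.52 and 3.98 in PEA2, 4.10, 4.55 and 4.62 in PEO1 and 1.72, 2.91 and 2.34 in PEO4. COL5A1 was called lower in PEO4 than in PEO1 (log2FC -2.10 ± 0.56 SE, FDR 0.0048), without PEO4 replicate 1 the log2FC was -1.80, and the difference between PEA1 and PEA2 did not pass (log2FC 1.26, FDR 0.058).

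The partner chains of type I collagen, COL1A1 and COL1A2, were both above 3 reads in CP70, PEA2, PEO1 and PEO4, while A2780 and PEA1 held at most 3 reads of COL1A2. COL1A1 was 8.81, 8.52 and 8.55 in PEA1, and its highest library in any other line was 3.33, in A2780. PEA2 was at 2.00, 1.73 and 2.12, a log2FC of -6.67 ± 0.37 SE (FDR 9.02e-12). PEA1 libraries with 513 to 649 reads of COL1A1 held no read of COL1A2.

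COL1A2 was highest in CP70, at 3.97, 3.87 and 3.73, where A2780 held 3 reads in all. The read ratio was 47.1 (95% counting interval 15.9 to 230), with a log2FC of 5.20 ± 0.53 SE (FDR 1.06e-07). In PEO4 COL1A2 was 2.96, 3.35 and 3.25 against 1, 1 and 2 reads in PEO1 (log2FC 4.30 ± 0.53 SE, FDR 1.94e-06). In PEA2 it held 5, 1 and 2 reads against none in PEA1, a log2FC of 1.76 that passed the test (FDR 0.0075) but missed it without PEA2 replicate 1 (log2FC 1.07, FDR 0.071). Per length, COL1A1 exceeded COL1A2 in A2780, PEA1, PEA2 and PEO1, and COL1A2 exceeded COL1A1 by 1.86 ± 0.08 log2 units in CP70. In PEO4 COL1A1 minus COL1A2 was -0.79 ± 0.74, with libraries on both sides of 0.

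COL11A1 and COL27A1 are the remaining fibrillar chains. COL11A1 was 7.93, 7.53 and 7.75 in A2780 and 3.70, 3.37 and 3.84 in CP70 (log2FC -4.10 ± 0.48 SE, FDR 7.15e-07). The other 4 lines held no read of it, apart from 1 read in PEO4. COL27A1 was called in no pair. Its line means lay between 1.21 in PEO1 and 4.47 in PEA1, and it passed downward in CP70 (log2FC -1.95, FDR 8.22e-06) and upward in PEO4 (log2FC 1.72, FDR 4.21e-05).

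COL4A1 and COL4A2 encode the chains of the main basement membrane collagen. They lie head to head on chromosome 13 (GRCh37, COL4A1 on the minus strand at chr13:110801310-110959504 and COL4A2 on the plus strand at chr13:110958159-111165556). Their annotated spans overlap but share no exon bases. Because the starts lie so close, both promoter windows are printed, 250 bases before and 50 after the start of each gene, from RefSeq on GRCh38.p14. The windows are chr13:110307108-110307407 on the minus strand for COL4A1 and chr13:110307034-110307333 on the plus strand for COL4A2. They share 226 bases, read on opposite strands, and the starts are 127 bases apart. Capitals mark the CCAAT motif and the GC box motif GGGCGG, on either strand.
COL4A1: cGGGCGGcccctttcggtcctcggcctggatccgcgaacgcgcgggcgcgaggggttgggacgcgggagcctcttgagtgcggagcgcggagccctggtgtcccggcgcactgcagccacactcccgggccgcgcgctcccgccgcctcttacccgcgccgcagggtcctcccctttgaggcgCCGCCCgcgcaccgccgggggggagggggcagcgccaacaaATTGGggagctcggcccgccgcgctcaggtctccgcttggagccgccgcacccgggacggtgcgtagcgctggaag
COL4A2: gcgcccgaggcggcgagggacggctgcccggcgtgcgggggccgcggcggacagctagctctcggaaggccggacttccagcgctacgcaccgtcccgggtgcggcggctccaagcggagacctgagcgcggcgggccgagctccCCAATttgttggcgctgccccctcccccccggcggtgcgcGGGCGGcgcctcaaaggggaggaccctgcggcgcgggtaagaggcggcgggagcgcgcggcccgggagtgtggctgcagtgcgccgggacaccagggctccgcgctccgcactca
The CCAAT motif begins 105 bases before the COL4A2 start, and the same letters appear in the COL4A1 window on its opposite strand.

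In expression the head-to-head genes had the same order of line means, from PEA1 through PEA2, PEO1, CP70 and PEO4 to A2780, with PEO4 and A2780 overlapping for COL4A2. COL4A1 was 9.51, 9.22 and 9.29 in PEA1, 8.81, 8.93 and 8.90 in PEA2 and 5.73, 5.42 and 5.45 in PEO1. COL4A2 was 9.90, 9.63 and 9.72, then 9.48, 9.58 and 9.53, then 6.31, 6.37 and 6.53 in the same lines. Per length COL4A1 was below COL4A2 by 0.435 ± 0.0198 log2 units in PEA1, by 0.673 ± 0.0175 in PEA2 and by 0.893 ± 0.264 in PEO1. These differences depend on the length used, and with exon-union lengths COL4A1 minus COL4A2 was -0.020 in PEA1, -0.26 in PEA2 and -0.48 in PEO1.

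PEO4 was near the floor for both. COL4A1 held 4, 1 and 2 reads and COL4A2 held 2, 2 and 5 reads in the PEO4 libraries, with log2FC of -5.64 ± 0.29 SE (FDR 1.53e-11) and -6.17 ± 0.28 SE (FDR 2.49e-12). CP70 differed from A2780 mainly in COL4A1. COL4A1 rose from no read in A2780 to 4.15, 4.36 and 4.35 in CP70, at least 61.9-fold (log2FC 6.94 ± 0.29 SE, FDR 1.23e-13). COL4A2 went from 7 reads to 40, at 1.60, 1.68 and 1.32 in CP70 (log2FC 1.70 ± 0.28 SE, FDR 4.95e-05). CP70 was the one line with more COL4A1 than COL4A2 per length in all 3 libraries, by 2.73 ± 0.25 log2 units. Between PEA1 and PEA2 neither gene passed (log2FC -0.46, FDR 0.18, and -0.22, FDR 0.51).

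The chains of specialised basement membranes behaved differently. COL4A4, which assembles with other minor type IV chains, was 5.13, 5.12 and 4.99 in PEA2, where PEA1 held 1 read. This was a read ratio of 152 (95% counting interval 27.1 to 6039) and a log2FC of 6.13 ± 0.52 SE (FDR 3.70e-09). It was lower in PEO4, at -0.21, 1.12 and 0.51, than in PEO1, at 3.27, 2.47 and 3.41 (log2FC -2.58 ± 0.52 SE, FDR 0.00043). CP70 held no read against 3, 2 and 4 in A2780 (log2FC -3.32, FDR 2.62e-05), and with 2 reads added to each count the log2FC was -1.86. With 3 reads set for CP70 the ratio was 4.37, which is no lower bound, since the few A2780 reads carry counting error too.

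COL4A5, a chain found in several basement membranes, was steadier. Its line means ranged over 2.48 log2 units, the least of the collagens, and it passed downward in CP70 (log2FC -1.38, FDR 0.00017) and PEA2 (log2FC -1.78, FDR 4.46e-06). PEO4 and PEO1 overlapped (log2FC -0.11, FDR 0.77). COL8A1 was 5.91, 5.85 and 6.04 in PEO1 and 2.68, 1.504 and 2.83 in PEO4 (log2FC -3.60 ± 0.49 SE, FDR 5.41e-06). It was 4.37, 4.18 and 4.13 in PEA1 and 2.74, 1.45 and 2.12 in PEA2 (log2FC -2.13 ± 0.49 SE, FDR 0.0008), and without PEA2 replicate 2 this log2FC was -1.80 and no longer called. A2780 held no read of COL8A1 and CP70 held 1.

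**Figure D4:**
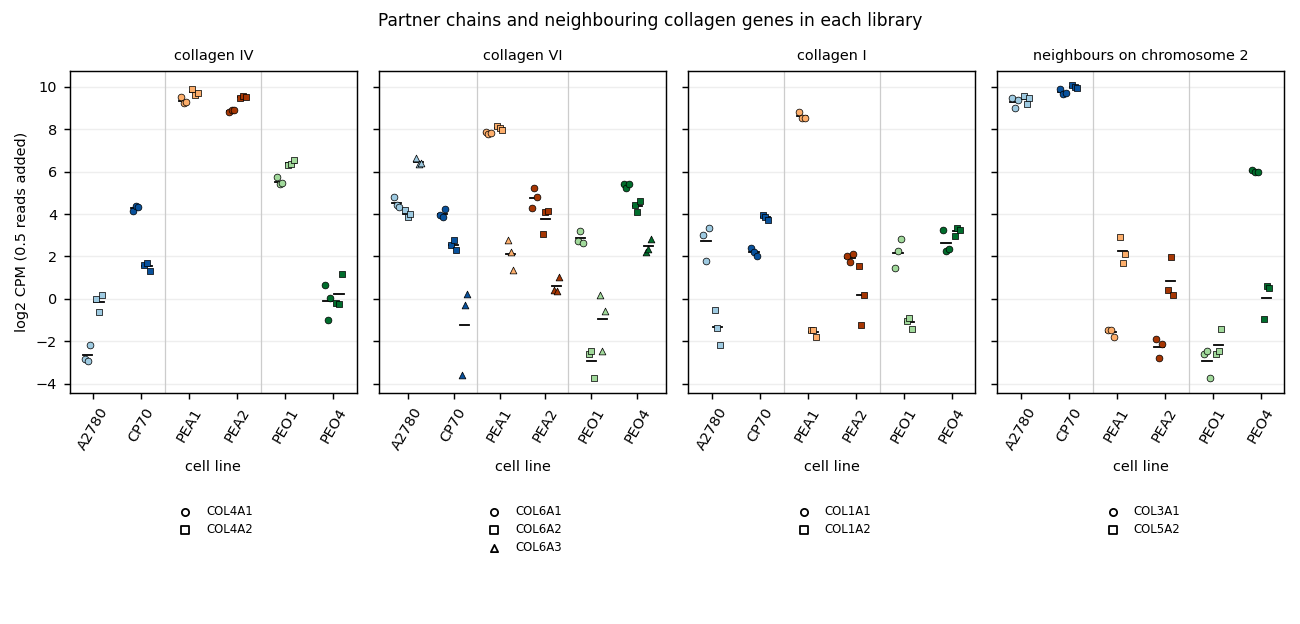
Points are the log2 CPM of single libraries (3 per line) and bars the line means, for COL4A1 and COL4A2, the type VI chains, the type I chains, and the neighbours COL3A1 and COL5A2. COL4A1 and COL4A2 follow the same order of lines, COL1A1 is high in PEA1 where COL1A2 had no read, and COL6A3 lies above COL6A1 and COL6A2 in A2780 and below COL6A1 in every other line.

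Type VI collagen is built from the chains of COL6A1, COL6A2 and COL6A3. COL6A1 and COL6A2 are neighbours on chromosome 21, 93061 bases apart on the same strand, and COL6A3 lies on chromosome 2. COL6A2 is shown because PEO1 held no read of it but did of its neighbour. Its window is chr21:46097862-46098161 on the plus strand (GRCh38.p14, RefSeq), with the TATAAA motif and GC boxes in capitals.
COL6A2: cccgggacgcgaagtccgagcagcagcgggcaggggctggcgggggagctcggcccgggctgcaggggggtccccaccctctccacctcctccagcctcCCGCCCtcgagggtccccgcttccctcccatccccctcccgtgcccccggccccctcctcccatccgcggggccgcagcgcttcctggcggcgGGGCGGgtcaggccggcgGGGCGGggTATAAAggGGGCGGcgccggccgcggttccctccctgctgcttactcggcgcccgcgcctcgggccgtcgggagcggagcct
The TATAAA motif begins 32 bases before the start, between GC boxes that begin 58, 40 and 24 bases before it.

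COL6A1 was 7.86, 7.77 and 7.80 in PEA1 and 4.28, 5.22 and 4.81 in PEA2 (log2FC -3.04 ± 0.21 SE, FDR 1.67e-10). COL6A2 was 8.15, 8.06 and 7.95 in PEA1 and 3.05, 4.10 and 4.14 in PEA2 (log2FC -4.29 ± 0.33 SE, FDR 9.02e-10). In the PEO pair the direction was the opposite for both. COL6A1 was 2.74, 3.19 and 2.61 in PEO1 and 5.43, 5.20 and 5.42 in PEO4 (log2FC 2.504 ± 0.21 SE, FDR 9.56e-09). COL6A2 held no read in PEO1 and was 4.41, 4.07 and 4.59 in PEO4, at least 84.8-fold higher (log2FC 7.30 ± 0.33 SE, FDR 2.34e-12). PEO1 thus had 85 reads of COL6A1 and none of its neighbour.

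In A2780 COL6A1 was 4.78, 4.43 and 4.31 and COL6A2 was 4.20, 3.87 and 3.99. CP70 was at 3.95, 3.84 and 4.23 for COL6A1, which did not pass (log2FC -0.50, FDR 0.062), and at 2.54, 2.76 and 2.28 for COL6A2, which passed without being called (log2FC -1.49, FDR 0.001). COL6A3 changed far more, from 6.66, 6.36 and 6.39 in A2780, with 866 reads, to 7 reads in CP70 (log2FC -7.68 ± 0.75 SE, FDR 5.05e-08). Per length COL6A1 minus COL6A3 was -0.64 ± 0.10 log2 units in A2780, but -0.0023 with exon-union lengths, and in the other lines COL6A1 was higher by either length. COL6A3 was 2.22, 2.37 and 2.83 in PEO4 against 3, 0 and 4 reads in PEO1 (log2FC 3.42 ± 0.75 SE, FDR 0.00096), and it did not pass between PEA1, at 2.79, 2.21 and 1.37, and PEA2, at 0.42, 0.37 and 1.04 (log2FC -1.51, FDR 0.086).

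COL7A1 encodes the anchoring fibril that ties basement membrane to the stroma. It was 7.20, 7.06 and 7.06 in PEA1 and 2.85, 3.47 and 3.89 in PEA2 (log2FC -3.70 ± 0.34 SE, FDR 1.25e-08). It was also lower in CP70, at 0.48, 0.38 and 0.24, than in A2780, at 3.90, 3.39 and 3.82 (log2FC -3.33 ± 0.34 SE, FDR 9.84e-08). Both PEO lines were low, with 2, 3 and 4 reads in PEO1 and 1, 2 and 2 reads in PEO4.

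COL12A1, the fibril-associated type XII chain, was higher in every resistant line than in its sensitive partner, and no libraries overlapped. It lies on chromosome 6 (GRCh37, chr6:75794042-75915983, minus strand), and its promoter window is printed because it passed upward in all 3 pairs (chr6:75206004-75206303, minus strand, GRCh38.p14, RefSeq, GC boxes on the opposite strand in capitals).
COL12A1: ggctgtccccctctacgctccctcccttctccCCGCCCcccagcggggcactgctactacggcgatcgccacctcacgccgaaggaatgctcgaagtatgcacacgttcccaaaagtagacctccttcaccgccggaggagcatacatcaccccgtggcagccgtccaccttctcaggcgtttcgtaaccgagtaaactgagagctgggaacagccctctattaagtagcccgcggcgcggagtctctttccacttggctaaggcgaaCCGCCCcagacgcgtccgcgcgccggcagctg
No TATAAA or CCAAT motif was found in these 300 bases. COL12A1 was 1.92, 1.29 and 2.36 in A2780 and 8.21, 8.12 and 8.17 in CP70 (log2FC 6.31 ± 0.19 SE, FDR 7.95e-16). It was 7.62, 7.28 and 7.39 in PEA1 and 8.73, 8.69 and 8.60 in PEA2 (log2FC 1.24 ± 0.19 SE, FDR 1.38e-05). It was 4.23, 3.58 and 3.98 in PEO1 and 5.32, 5.31 and 5.21 in PEO4 (log2FC 1.35 ± 0.19 SE, FDR 1.08e-05). The log2FC in the A2780 pair exceeded those of the PEA and PEO pairs by 5.07 ± 0.27 SE (FDR 6.69e-12) and 4.96 ± 0.27 SE (FDR 1.26e-11), and those of PEA and PEO differed by -0.11 (95% interval -0.68 to 0.46, FDR 0.75).

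Promoter windows were matched for 24 of the 32 genes in the RefSeq table used here. TATAAA was present in 3 of them, CCAAT in 8 and GGGCGG in 15, each counted on either strand. Over 35116 windows of the same 300 bases these letters were present in 11.5%, 34.6% and 45%. The windows of the 24 genes held a median of 28.5 CpG dinucleotides and those of all genes 14, many of which are not in the expression table. Collagens with large differences between lines had windows of both kinds, with 45 CpG dinucleotides for COL4A1 and 4 for COL6A3.

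COL18A1, COL25A1 and COL26A1 complete the collagens. COL18A1 is a basement membrane proteoglycan core whose end fragment is endostatin. Its line means lay between 3.85 in A2780 and 6.69 in PEA1, and it passed in all 3 pairs without being called, with log2FC of 0.93 for CP70, -0.97 for PEA2 and 1.04 for PEO4. It shares 1563 exon bases with SLC19A1 on the opposite strand, and the strand setting of the counting is not given in the sources used here. COL25A1, a transmembrane collagen best known from neurons, was 4.81, 5.22 and 4.99 in PEA2 and held no read in A2780, CP70 or PEA1 (at least 49.97-fold higher than PEA1, log2FC 6.59 ± 0.55 SE, FDR 3.70e-09). COL26A1 was 3.40, 3.40 and 3.22 in CP70 against 3, 2 and 3 reads in A2780 (log2FC 3.35 ± 0.57 SE, FDR 7.50e-05), and it was 1.95 and not called after quantile normalization.

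In PEA2, where COL25A1 and COL4A4 appeared, CDH5 (an endothelial gene) held 66 to 88 reads per library and PTPRC (a leukocyte gene) 46 to 70, while PEA1 held none of either. CDH5 and PTPRC were the only genes in the table of 5 listed endothelial and 5 listed leukocyte markers. In CP70, where COL1A2, COL12A1 and COL4A1 were higher, the summed level of 5 fibroblast markers was 544 to 591 CPM against 65.8 to 77.8 CPM in A2780. These were the 5 of 8 listed fibroblast markers in the table, since PDGFRA, PDGFRB and FAP were not in it. Most of the sum was POSTN in CP70 and ACTA2 in A2780. POSTN, a matrix protein of fibroblasts, held 1891 to 2720 reads in CP70 and 0 to 2 in A2780, and DCN, LUM and THY1 were called higher too. The fifth marker, ACTA2, passed in the other direction (log2FC -1.02, FDR 0.022), with 138 to 248 reads in A2780 and 116 to 190 in CP70. In PEA1 and PEA2 the same list summed to between 1.43 and 5.49 CPM. In PEO1 and PEO4 it summed to between 150 and 170 CPM, most of it THY1, with POSTN, DCN and LUM at 0 or 1 read in every library. The part of these markers in the collagen differences was not tested.

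P4HA1 and P4HA2 encode the catalytic subunits of prolyl 4-hydroxylase, which stabilises the helix. P4HA2 was 4.66, 4.01 and 4.76 in A2780 and 5.68, 5.89 and 5.82 in CP70, with a log2FC of 1.32 ± 0.19 SE (FDR 7.27e-06). It was 6.23, 6.18 and 5.84 in PEA1 and 6.89, 7.04 and 6.73 in PEA2 (log2FC 0.81 ± 0.19 SE, FDR 0.00086). It was 3.69, 4.02 and 4.06 in PEO1 and 4.94, 4.95 and 5.41 in PEO4 (log2FC 1.17 ± 0.19 SE, FDR 3.47e-05). P4HA2 was thus higher in the resistant line of each pair with no overlap of libraries, by less than the threshold for a call. P4HA1 passed upward in PEA2 (log2FC 0.45, FDR 0.004) and PEO4 (log2FC 1.66, FDR 2.57e-09), and did not pass in CP70 (log2FC 0.16, FDR 0.34).

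PLOD1, PLOD2 and PLOD3 encode lysyl hydroxylases, and the enzyme of PLOD2 acts on the ends of fibrillar collagen, where it sets the kind of cross-link. PLOD2 was 4.36, 4.83 and 4.58 in A2780 and 2.499, 2.41 and 2.43 in CP70 (log2FC -2.14 ± 0.12 SE, FDR 6.14e-12), with -1.94 after quantile normalization. It was 7.29, 7.41 and 7.33 in PEA1 and 9.03, 8.71 and 9.12 in PEA2, a passing rise of 1.60 ± 0.12 SE (FDR 3.89e-10). In PEO1, at 8.85, 8.87 and 8.81, and PEO4, at 8.37, 8.57 and 8.39, it was high in both (log2FC -0.40, FDR 0.0089). The PLOD1 line means lay between 5.67 in PEO1 and 7.55 in CP70 and those of PLOD3 between 5.56 in A2780 and 7.41 in PEA1, and neither was called in any pair.

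SERPINH1, the collagen chaperone, was the enzyme or helper with the highest level per length in A2780, CP70 and PEO4. It was 8.94, 8.53 and 8.74 in A2780, 8.93, 8.88 and 8.84 in CP70, 7.14, 7.14 and 7.23 in PEA1 and 7.05, 7.18 and 6.95 in PEA2. It was 6.98, 7.12 and 7.18 in PEO1 and 7.99, 7.85 and 8.203 in PEO4, the one pair where it passed (log2FC 0.92 ± 0.11 SE, FDR 6.82e-07). CP70 and A2780, the lines with the most COL3A1 and COL5A2, were also those with the most SERPINH1. PEA1 had the highest sum of collagens (2892 CPM) and PEO4 the lowest (273 CPM), with mean SERPINH1 of 7.17 and 8.01. A link between SERPINH1 and collagen levels was not tested. LOXL2 held the first place in PEA1, and PLOD2 in PEA2 and PEO1. With exon-union lengths P4HA1 came first in PEA2 and PEO4.

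The lysyl oxidases, which cross-link collagen and elastin outside the cell, each followed their own pattern. LOXL4 was 6.78, 6.46 and 6.55 in PEA1 and 0.90, 0.90 and 0.19 in PEA2, from 436 reads to 11 (log2FC -5.93 ± 0.40 SE, FDR 1.38e-10). In PEO1 it was 5.83, 5.85 and 6.41 and in PEO4 6.77, 7.08 and 7.24 (log2FC 1.001, FDR 0.051), and A2780 and CP70 held 9 and 5 reads. LOXL2, which shares 120 exon bases with ENTPD4 on the same strand, was 8.83, 9.16 and 9.24 in PEA1, 8.05, 7.97 and 8.02 in PEA2, 6.60, 6.28 and 6.48 in A2780 and 6.67, 6.55 and 6.45 in CP70. It passed downward in PEA2 (log2FC -1.06, FDR 9.88e-07) and was called in the PEO pair alone, from 5.05, 4.97 and 5.001 in PEO1 to 2.75, 3.30 and 2.83 in PEO4 (log2FC -2.05 ± 0.13 SE, FDR 3.68e-10), and without PEO4 replicate 1 or 3 its log2FC was -1.94 or -1.98, short of a call.

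LOXL1 was 2.74, 2.49 and 2.83 in PEA2 against 3, 0 and 1 reads in PEA1 (log2FC 2.80 ± 0.52 SE, FDR 0.00011), and with 2 reads added the log2FC was 1.77. It was highest in PEO4, at 4.34, 4.41 and 4.30, above 3.17, 3.71 and 3.53 in PEO1 (log2FC 0.88, FDR 0.19), while A2780 held no read and CP70 held 1. It shares 335 exon bases with LOXL1-AS1 on the opposite strand. LOX passed upward in CP70 (log2FC 1.90, FDR 2.69e-05) and downward in PEA2 (log2FC -1.15, FDR 0.0023), and its line means ran from 0.28 in A2780 to 5.77 in PEA1.

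PCOLCE enhances the removal of the procollagen C-propeptide, which BMP1 carries out. PCOLCE was 6.85, 6.61 and 6.54 in A2780 and 5.67, 5.58 and 5.62 in CP70 (log2FC -1.04, FDR 0.030). In the PEA pair it fell from 1.71, 2.21 and 2.45 to 0.42, -0.47 and 0.68 (log2FC -1.92, FDR 0.00015). It was called higher in PEO4, at 2.42, 2.46 and 3.25, than in PEO1, at -0.29, 1.22 and 0.52 (log2FC 2.23 ± 0.37 SE, FDR 5.80e-05), and not without PEO1 replicate 1 or PEO4 replicate 3, with log2FC of 1.84 and 1.96. Leaving out any 1 of the 6 A2780 and CP70 libraries raised its FDR there to between 0.053 and 0.096, above the threshold. BMP1 did not pass in any pair, with log2FC of 0.42, -0.36 and -0.31.

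**Figure D5:**
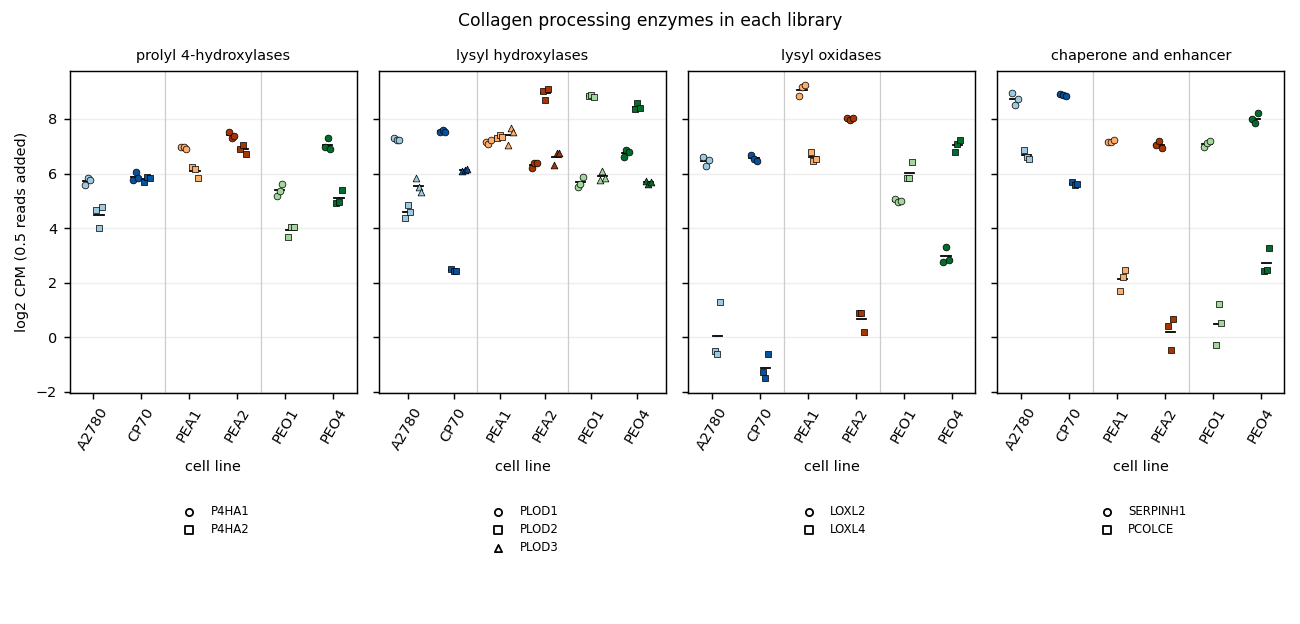
Points are the log2 CPM of single libraries (3 per line) and bars the line means for 9 enzymes and helpers. P4HA2 is higher in the resistant line of every pair, LOXL4 is near the floor in A2780, CP70 and PEA2, and PCOLCE is above 5 in A2780 and CP70 alone.

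Whether a gene changed differently in the pairs was tested on the difference between their log2FC, which rest on separate libraries. Between the A2780 and PEA pairs 16 of the 32 genes differed by more than 2 log2 units at an FDR below 0.05, where 20.4% of all genes did. Between the A2780 and PEO pairs 15 differed, beside 14.9% of all genes, and between the PEA and PEO pairs 18 differed, beside 19.4%. In all, 5 collagens and no enzyme were called in opposite directions in different pairs, where 3.03% of all genes were. They were COL4A1, COL4A4, COL6A1, COL6A2 and COL6A3. For COL4A1 the log2FC of CP70 against A2780 (6.94) and of PEO4 against PEO1 (-5.64) differed by 12.58 ± 0.41 SE (FDR 6.07e-15). For COL6A2 the log2FC of PEA2 against PEA1 (-4.29) and of PEO4 against PEO1 (7.30) differed by -11.59 ± 0.46 SE (FDR 1.60e-13).

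A model with the pair and the sensitivity as terms asked what the resistant lines had in common. It called 5 of the 32 genes, where 3.56% of all genes were called. COL1A2 (log2FC 3.75 ± 0.49 SE, FDR 7.34e-05), COL12A1 (2.97 ± 0.58, FDR 0.002) and COL25A1 (2.43 ± 0.83, FDR 0.043) were higher in the resistant lines, and COL7A1 (-2.42 ± 0.43, FDR 0.00092) and COL1A1 (-2.24 ± 0.79, FDR 0.048) were lower. COL1A1 and COL25A1 were called in the PEA pair alone, so their values over all pairs come mainly from those lines. COL12A1 passed in all 3 pairs but was called in the A2780 pair alone (log2FC 6.31, against 1.24 in PEA and 1.35 in PEO). COL7A1 did not pass in the PEO pair (log2FC -0.22), and COL1A2 was not called in the PEA pair (log2FC 1.76). Without PEA1 replicate 3, PEA2 replicate 1 or PEA2 replicate 3, 3 genes were called. P4HA2 had a log2FC of 1.10 ± 0.13 SE (FDR 1.81e-05) in the same model. These p-values treat the 9 resistant and 9 sensitive libraries as replicates. With 1 difference per pair limma called 0 of the 32 genes, and the smallest FDR among them was 0.98. An unadjusted p below 0.05 was reached by 4 of them, COL7A1, P4HA2, COL1A2 and COL12A1. The share of all genes at that level was not counted.

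Of 34 other genes of collagen biosynthesis, export, binding and recognition in the table, 13 passed upward and 8 downward in CP70, 9 and 13 in PEA2, and 14 and 4 in PEO4, where 39.9%, 61.9% and 41.5% of all genes passed in either direction. The genes called were 8 higher and 2 lower in CP70 (5.66% and 3.4% of all genes), 5 higher and 7 lower in PEA2 (7.93% and 6.15%), and 3 higher and 2 lower in PEO4 (2.86% and 3.37%). MRC2, an endocytic receptor that takes up collagen, fell from 799 to 971 reads per library in PEA1 to 2 to 6 in PEA2 (log2FC -8.56 ± 0.19 SE, FDR 1.99e-17). ITGA2, the collagen-binding integrin chain of epithelial cells, went the other way, from 6 to 11 reads to 922 to 1708 (log2FC 6.52 ± 0.22 SE, FDR 9.54e-15). ITGA2 was also called higher in CP70 (log2FC 2.92, FDR 1.34e-09) and passed upward in PEO4 (0.86, FDR 0.0041).

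LEPREL1, which encodes prolyl 3-hydroxylase 2 and acts on type IV collagen, was called in all 3 pairs. It was higher in CP70 (log2FC 4.26, FDR 4.23e-10) and lower in PEA2 (-2.62, FDR 3.13e-07) and PEO4 (-4.49, FDR 5.67e-10). Of the type IV chains, COL4A1 (6.94, -0.46 and -5.64) and COL4A2 (1.70, -0.22 and -6.17) took the same signs, without passing in the PEA pair. COL4A4 (-3.32, 6.13 and -2.58) and COL4A5 (-1.38, -1.78 and -0.11) did not. COL26A1, PLOD3, LOXL2 and BMP1 had the signs of LEPREL1 too. A link between LEPREL1 and these genes was not tested. SPARC, a collagen-binding matricellular protein, was lower in CP70 (log2FC -3.16, FDR 7.80e-10) and higher in PEA2 (5.64, FDR 1.34e-13). In PEO4 the collagen-binding proteins of PRELP (log2FC 5.16, FDR 2.35e-07) and TNXB (4.43, FDR 2.16e-07) were higher, while TNXB was lower in CP70 (-2.51, FDR 0.00018). TLL1, a relative of BMP1, was higher in CP70 (4.15, FDR 4.20e-05) and lower in PEA2 (-5.04, FDR 2.04e-06), and ITGA11, a receptor for fibrillar collagen, was lower in PEA2 (-3.88, FDR 1.53e-05). The 5 procollagen export genes in the table were not called in any pair.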

How the data were processed

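Total RNA of the 6 lines was sequenced in 3 libraries each from strand-specific, ribosomal RNA-depleted preparations. The authors assigned reads to UCSC known genes of hg19 with featureCounts and normalised them with limma, and Bowtie2 is also named in the submitters' processing notes. The deposited values are log2 CPM for 12853 genes. The filter on low genes and the strand setting are not given in the sources used here. For 100% of the values a whole read number could be recovered (tolerance 0.01), which gave depths and floors (3 reads over a line), which cover counting error only, with 95% intervals.

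The deposited log2 values were fitted with limma 3.58.1 in R 4.3.3 (trended variance, a mean for each line, no block) and genes were called by the thresholds of the study (an FDR under 0.05 with |log2FC| over 2). Levels per length used the canonical transcript of the GRCh37 annotation. The main fits, by line and by sensitivity, were tested on simulated data, and the alternative fits were not. The genes changed in the simulation were not drawn from the lowest levels. Values of every library are given for genes called in at least 1 pair with a mean of at least 10 reads in a line of that pair, for the gene with the highest level per length in each line, and for COL5A2 and P4HA2, which were added after their values were seen. Of the related list, up to 8 genes called by the same rule were named, largest |log2FC| first. The members and lists were chosen with earlier results of these data known. The alternatives were other normalisations, weights, filters, thresholds, added reads, a replicate block and leaving out each library. Exon-union lengths were added after the data were seen.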

Additional observations from a re-analysis of the deposited data

Results flagged for a closer look

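The collagens called in opposite directions in different pairs were each tested as a difference of log2FC between pairs. For COL4A1 the A2780 pair exceeded the PEO pair by 12.58 ± 0.41 SE, with 0, 0 and 0 reads in A2780 and 108, 86 and 77 in CP70, against 162, 119 and 289 in PEO1 and 4, 1 and 2 in PEO4. For COL4A4 the A2780 pair minus the PEA pair was -9.45 ± 0.73 SE and the PEA pair minus the PEO pair was 8.71 ± 0.73 SE, since PEA2 was the one resistant line with more COL4A4 than its partner.

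For the type VI chains the PEA pair minus the PEO pair was -5.54 ± 0.29 SE for COL6A1 and -11.59 ± 0.46 SE for COL6A2, and for COL6A3 the A2780 pair minus the PEO pair was -11.11 ± 1.06 SE. In each of these 6 differences the libraries of the resistant and the sensitive line did not overlap in either pair, and the FDR was at most 4.23e-08 (limma). The 6 were picked because both pairs were called, with opposite signs, and their difference was called as well. Their low FDR therefore follows from that choice and adds no support to it.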

How the results depend on the processing

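Of the 31 calls in single pairs 21 were made under every alternative and no sign changed. COL25A1 in the PEA pair was not tested under the filter on a mean log2 value above 0, which removed it and left 2 genes higher in PEA2. Quantile normalization, 2 reads added to each count or leaving out 1 library ended 9 calls (COL4A4, COL26A1 and PLOD2 in the A2780 pair, COL8A1 and LOXL1 in the PEA pair, COL5A1, COL5A2, LOXL2 and PCOLCE in the PEO pair). Of 32 passing differences without a call, 9 lost the FDR threshold under an alternative, those of COL4A2, COL18A1, PLOD1, PLOD3, LOXL4 and PCOLCE in the A2780 pair and of COL1A2, COL5A2 and P4HA1 in the PEA pair. At |log2FC| above 1 the calls were 7 higher and 10 lower in CP70 (11.6% and 7.57% of all genes), 6 and 11 in PEA2 (18.3% and 15.3%) and 13 higher in PEO4 (9.15%), the sensitivity model called 9 genes (8.94%) and the related list 11 in the PEO pair (18.8% in either direction). With voom weights the sensitivity model called 9 and with 1 difference per pair 0, and the share of all genes called was not counted for these settings. The replicate block changed the sensitivity model from 5 genes to 3 and no count within a pair. Deviations from the line means in same-numbered libraries of a pair correlated between -0.035 and 0.048. The shared numbers thus gave no sign of pairing, though this cannot show how the replicates were handled.

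Leaving out each library gave 4 to 5 higher and 5 to 6 lower in CP70, 3 to 4 and 5 to 7 in PEA2, 5 to 9 and 4 to 6 in PEO4, 15 to 20, 14 to 17 and 16 to 19 for the differences between pairs, 3 to 6 for the sensitivity model, and 9 to 10, 10 to 13 and 4 to 5 for the related list. With exon-union lengths (chosen after seeing the data) the difference COL3A1 minus COL5A2 was -0.013 log2 units in A2780 and -0.13 in CP70, COL4A2 minus COL6A2 was -0.15 in PEA1, and COL4A2 minus COL8A1 was -0.57 in PEO1, each positive with canonical lengths. Depth limits the low genes, since 3 reads correspond to at most 2.18 CPM per library, and log2FC against a line without reads depends on the 0.5 reads added.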
